A study of Rattus norvegicus with 15 samples.

Results

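Nmrk2 encodes nicotinamide riboside kinase 2, an enzyme that phosphorylates the vitamin nicotinamide riboside on the way to NAD. It was described here with 6 other genes of NAD metabolism (Nampt, Nmnat1, Nmnat3, Nnmt, Sirt1 and Sirt3) in the gastrocnemius muscle of male Wistar rats after postnatal protein restriction. These 7 genes were chosen by name, with the changes of Nmrk2 in these arrays already known, out of 14217 genes that have a probe set carrying a single symbol. Of the 7, 6 have such a probe set, with 7 probe sets in all, because Nampt has 2. Sirt1 has none, so it has no value here.

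The rats were bought at 3.5 weeks of age. The LP group was fed 8% casein for 4 weeks and the CN group a calorie-matched diet with 15% casein (n = 4 rats each). The LP-R group (n = 4) received 8% casein for the same 4 weeks and then the 15% casein diet, and the CN-R group (n = 3) the 15% casein diet throughout, both until sampling on day 84. All rats were fasted for 16 h before sampling. RNA of each rat went on 1 Affymetrix GeneChip array of the rat genome, and the rats used were those with a body weight near the average of their group. The sample labels state that both late groups stayed on their first diet until day 84, whereas the methods of the study give both the control diet, which is the reading used here. CN-R replicate 4 is a control by its title and description but is given protein restriction in its treatment field, and it was kept in CN-R. CN-R replicate 3 was not used here. The design asks how muscle RNA levels changed at the end of the restriction (LP against CN) and how much of a difference remained after the return to the control diet (LP-R against CN-R).

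NAD carries electrons between the fuel-burning enzymes of muscle and is also used up by sirtuins and by ADP-ribosylating enzymes, so cells keep making it. Nampt recycles nicotinamide to nicotinamide mononucleotide, the nicotinamide riboside kinases reach the same mononucleotide from the riboside, and the Nmnat enzymes complete NAD from it. Nmrk1 is found in many tissues, while Nmrk2 is mainly a gene of skeletal and cardiac muscle, and its protein was first described as a muscle protein that binds integrin beta 1.

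The rat Nmrk2 gene lies on chromosome 7 of the GRCr8 build, on the plus strand, from 9165567 to 9168638. The 300 bases around its start (chr7:9165317-9165616, plus strand, from 250 bases before the start to 50 after it, from RefSeq) are shown because Nmrk2 was the only member called changed. Capitals mark a MEF2 core (TATTTTTA), both E-boxes (CANNTG) and a TATA motif (TATAAA), all searched on both strands.
Nmrk2: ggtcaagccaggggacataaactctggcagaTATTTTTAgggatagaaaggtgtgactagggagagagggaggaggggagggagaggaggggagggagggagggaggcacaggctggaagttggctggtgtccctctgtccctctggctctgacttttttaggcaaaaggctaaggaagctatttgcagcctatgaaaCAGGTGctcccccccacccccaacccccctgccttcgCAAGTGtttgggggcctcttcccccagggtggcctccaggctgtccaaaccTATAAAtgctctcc
The MEF2 core lay 219 to 212 bases before the annotated start and was present in 2.69% of 33469 RefSeq promoters of this length. E-boxes lay 52 to 47 bases (CAGGTG) and 15 to 10 bases (CAAGTG) before the start, and 72.1% of promoters held at least 1. The TATA motif (14.2% of promoters) lay 37 to 42 bases after the annotated start. The window held no MCAT motif (CATTCC, in 14.2% of promoters), no cAMP response half-site (TGACG, 21.2%) and no GC box (GGGCGG, 33.1%). The nuclear receptor half-site (AGGTCA, 16.2%) and its longer Nr4a form (AAAGGTCA, 1.43%) were not found either. Promoters were at hand for 5 of the 7 members, and none of the other 4 held TATTTTTA. These matches describe letters in the window and say nothing about binding.

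The values are log2 signals that the authors made with FARMS, which summarizes the probes of a probe set and pulls it toward a constant when its probes do not vary together. Of 31042 probe sets, 3974 (12.8%) had an SD over 0.01 across the LP and CN arrays and 3100 (9.99%) across the LP-R and CN-R arrays. A probe set under that limit, called nearly constant below, measured no change and is not evidence that the gene did not change. The early and late arrays were summarized apart, so levels were compared only within each set. Genes that define muscle fibers were all present (8 of 8, log2 signals 12.02 to 14.07 in the early set and 11.88 to 14.16 in the late set). In whole muscle, fewer cells of a type and less RNA per cell cannot be told apart. Calls were made anew by rank products, the method the study named, with up to 0.05 as the estimated share of false positives (pfp). They are not the calls of the study and differ from them in part. Nmrk2 had been picked for both of its changes, so its values and those of the other members are given as a description, with no test.

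Nmrk2 was higher in LP than in CN muscle. Its log2 signal (probe set 1378423_at) was 8.60, 8.90, 9.33 and 8.95 in the LP rats, against 7.58, 8.17, 8.58 and 8.67 in the CN rats. Groups of varying probe sets did not overlap for 7.9% of the 3974 early ones and 3.84% of the 3100 late ones. Those of Nmrk2 overlapped at 1 point, where LP replicate 1 lay below CN replicate 4, and the LP rat was the higher one in 15 of 16 pairs. The LP mean was 8.95 ± 0.30 and the CN mean 8.25 ± 0.50 (SD, n = 4 each), a log2 change of 0.69 (SE 0.29) or 1.62-fold. The difference of the means was larger than either SD. It ranked 8 from the top among the changes of all 31042 probe sets, and Nmrk2 itself was among the most variable ones, with an SD above that of 99.8% of them.

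On day 84 the difference was smaller. Nmrk2 had log2 signals of 8.92, 9.03, 9.61 and 9.60 in the LP-R rats, against 8.82, 8.94 and 9.35 in CN-R replicates 1, 2 and 4. The LP-R and CN-R values interleaved, and the LP-R rat was higher in 9 of 12 pairs. Means were 9.29 ± 0.37 (SD, n = 4) in LP-R and 9.03 ± 0.28 (SD, n = 3) in CN-R, a change of 0.25 (SE 0.25) or 1.19-fold, which is smaller than the SD of either group. It ranked 44 from the top among the 31042 changes. Whether the early and the late change of Nmrk2 differ was not tested, since both were used to choose it.

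**Figure D1:**
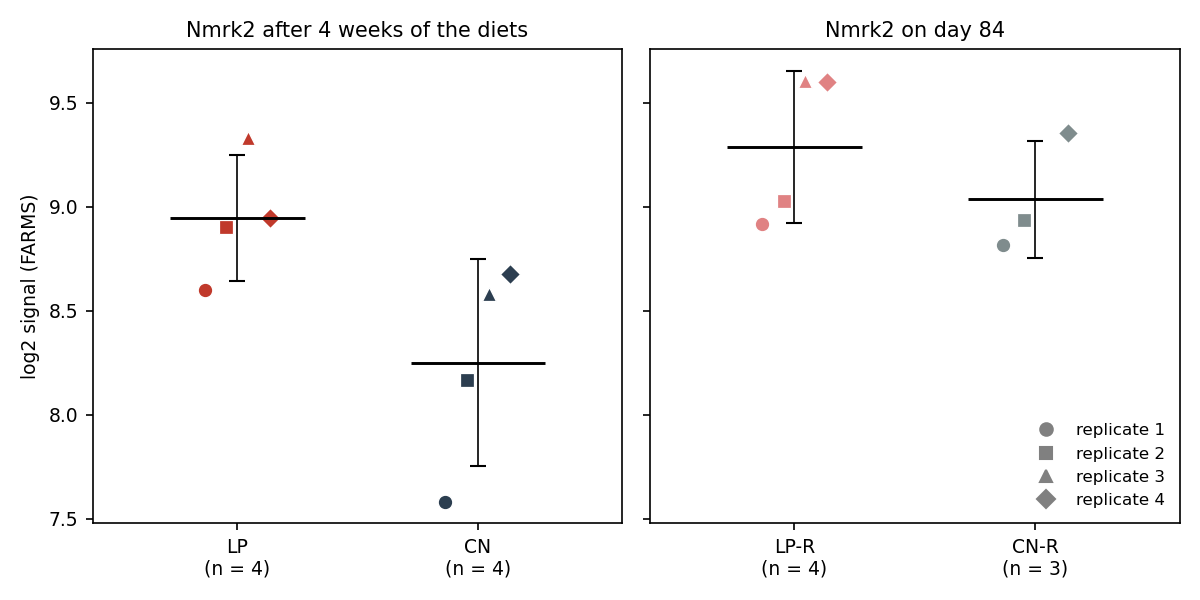
Log2 signal of Nmrk2 (vertical axis) in each rat, by group, with the mean (horizontal line) and SD (bar) and a marker shape for each replicate number. LP averaged 8.95 and CN 8.25 after 4 weeks, with 1 overlapping pair, and LP-R averaged 9.29 and CN-R 9.03 on day 84, with values that interleave.

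Rank products called Nmrk2 higher in both comparisons, and it was the only called member of the 6 with a value. In the whole table, 1.68% of probe sets were called higher and 1.58% lower in LP against CN, and 0.345% higher and 0.171% lower in LP-R against CN-R. The late split of 107 higher and 53 lower depends on the permutations: with values centred per probe set first it was 64 higher and 154 lower. The study, which counted genes, reported more of them lower than higher in LP-R, the opposite balance to the split without centring. By limma with Benjamini-Hochberg adjustment no probe set of the table passed an adjusted p of 0.05 in either comparison (0% each), while 7.54% and 5.04% had an unadjusted p under 0.05 early and late. These calls rest on the values that chose Nmrk2 and are part of its description. Leaving out 1 array moved the early change to between 0.47 (without CN replicate 1) and 0.84 (without CN replicate 4). Rank products made the early call in 13 of 13 other settings and the late call in 8 of 13, and limma, which is not among these settings, called no probe set. The late call was lost without LP-R replicate 3 (0.15), LP-R replicate 4 (0.15) or CN-R replicate 1 (0.14), in same-numbered pairs (0.15) and among the varying probe sets alone. Without CN-R replicate 4 the late change was 0.41, and with that array counted as LP-R it was 0.42.

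Nmrk2 also differed with the replicate number. In each of the 4 groups the arrays numbered 3 and 4 were higher than those numbered 1 and 2, a pattern that 19 of 1741 probe sets varying with an SD over 0.05 in both sets shared and 77 showed in the opposite direction. The labels do not say what the numbers stand for. Among replicates 1 and 2, Nmrk2 averaged 8.75 in LP and 7.88 in CN (n = 2 each, change 0.88), and among replicates 3 and 4 it averaged 9.14 in LP and 8.63 in CN (n = 2 each, change 0.51). The late averages were 8.97 in LP-R and 8.88 in CN-R for replicates 1 and 2 (n = 2 each, change 0.10). For the higher numbers they were 9.60 in LP-R (n = 2) and 9.35 in CN-R (n = 1), a change of 0.25. The part of the replicate number in the changes of Nmrk2 was not tested.

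Nampt, which makes nicotinamide mononucleotide from nicotinamide, showed a smaller early difference on 1 of its probe sets (gene on chromosome 6, 55152756 to 55189547, GRCr8). Probe set 1389014_at read 9.62, 9.73, 9.73 and 9.82 in LP, against 9.68, 9.59, 9.58 and 9.77 in CN. The groups overlapped, and the change was 0.07 (SE 0.06), with the LP rat higher in 12 of 16 pairs. The LP mean was 9.73 ± 0.079 and the CN mean 9.66 ± 0.088 (SD, n = 4 each). The other probe set, 1396262_at, read 7.53, 7.55, 7.50 and 7.60 in LP, against 7.56, 7.54, 7.56 and 7.56 in CN, a change of −0.01 (SE 0.02). Neither was called, and on day 84 both were nearly constant, at 9.40 and 7.53 in every LP-R and CN-R rat.

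Nmnat3, the mitochondrial enzyme of the last step to NAD (chromosome 8, 107771124 to 107888528), varied only in the late set. Its log2 signals were 8.15, 8.12, 8.09 and 8.11 in LP-R, against 8.12, 8.14 and 8.13 in CN-R, a change of −0.01 (SE 0.01) with overlapping groups. In the early set it was nearly constant at 8.07. The nuclear enzyme of the same step, Nmnat1 (chromosome 5, 165193301 to 165211213), was nearly constant at 7.65 in the LP and CN arrays and again at 7.65 in the LP-R and CN-R arrays.

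Nnmt, which methylates nicotinamide and so takes it out of the recycling route (chromosome 8, 57820156 to 57851301), was nearly constant at 6.68 early and 6.70 late. Sirt3, the main NAD-dependent deacetylase of mitochondria (chromosome 1, 205371703 to 205394145), was nearly constant at 7.77 early and 8.48 late. Sirt1, the nuclear deacetylase of the same family (chromosome 20, 25305953 to 25328000), is the member without a probe set of its own symbol. In all, 4 of the 7 member probe sets were nearly constant across LP and CN and 5 across LP-R and CN-R, and the widest range among them was 4.1e-05. For these genes the arrays gave no measurement of a change in either direction.

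**Figure D2:**
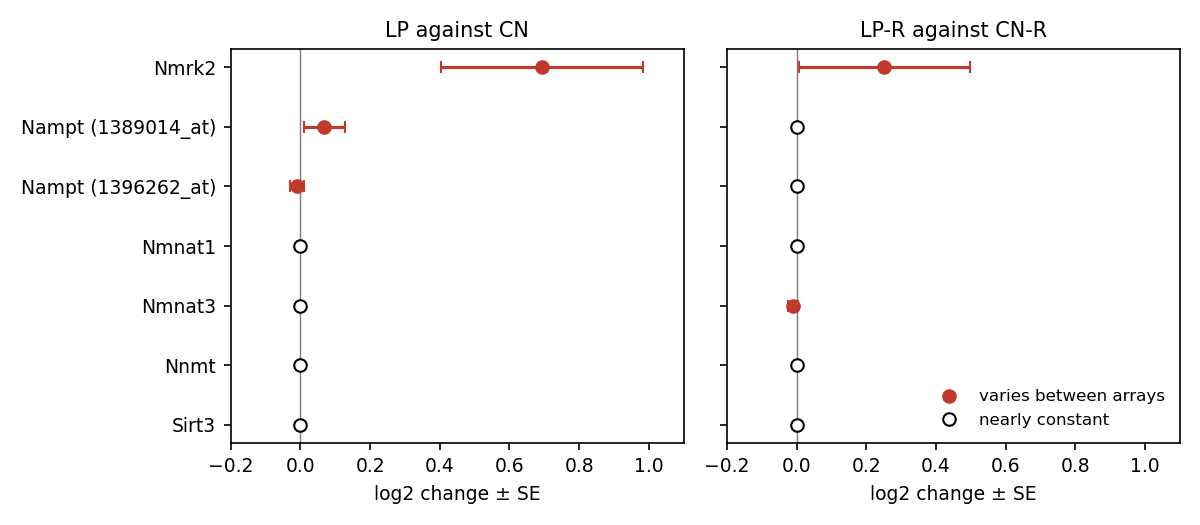
Log2 change (horizontal axis, with SE) of each member probe set, with LP against CN on the left and LP-R against CN-R on the right. Open circles are nearly constant probe sets, and Nmrk2 stands at 0.69 and 0.25 while every other member lies between −0.01 and 0.07.

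The wider NAD pathway was followed with a list of 68 other genes, of which 63 have a probe set with a single symbol. The list was written from general knowledge with earlier results of these arrays known. Of the 63, 15 had a varying probe set in the early set and 12 in the late set. Rank products called 1 of the 63 higher in LP (Nt5e), 1 lower (Art1) and 61 neither, against the 1.68% and 1.58% of all probe sets. In LP-R against CN-R it called 0 and left all 63 uncalled. By limma 0 genes passed in either comparison, with 6 early and 3 late at an unadjusted p under 0.05. The median change over the measured genes was 0.00 in both comparisons, as it was over the whole table. On their brightest probe sets, only 14 of the 63 genes varied early and 9 late. The nearly constant values thus fix the median near 0, and it measures no shift of the pathway.

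Nt5e encodes CD73, the cell-surface enzyme that cuts mononucleotides, including AMP and nicotinamide mononucleotide, to nucleosides. Its log2 signal was 7.19, 7.20, 7.05 and 7.26 in LP, against 7.05, 7.03, 6.88 and 7.03 in CN. The lowest LP rat lay just above the highest CN rat (both 7.05 when rounded), so the groups did not overlap (background 7.9%). The change was 0.18 (SE 0.06), with an exact two-sided permutation p of 0.0286, the smallest that 70 splits allow, and an adjusted p of 0.628 by limma. Nt5e and Art1 were named because they were called in this comparison. Pnp, and further below Ldhb, Nnt and Gpd2, were named for a small limma p in these same arrays. The exact p of these genes is thus a description and no independent support. The call of Nt5e was lost without LP replicate 1 (0.17), 2 (0.17) or 4 (0.15), and on day 84 it was nearly constant at 6.91. Pnp, the phosphorylase that splits nicotinamide riboside and other nucleosides, had log2 signals of 8.23, 8.18, 8.21 and 8.22 in LP, against 8.19, 8.14, 8.10 and 8.14 in CN. Its change was 0.07 (SE 0.02, exact permutation p 0.0571, limma adjusted p 0.613) and was not called. On day 84 Pnp was nearly constant at 8.00. Nmrk1, the other riboside kinase, and Bst1 were nearly constant in both sets, as were the 2 nucleoside transporters Slc29a1 and Slc29a2. Of the 6 genes on the riboside route, 2 thus varied in the early set and 0 in the late set.

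Art1 encodes an ADP-ribosyltransferase anchored on the muscle cell surface, which uses NAD to modify proteins such as integrin alpha 7. Its probe set 1386598_at read 10.11, 10.48, 10.28 and 10.38 in LP, against 10.78, 10.62, 10.99 and 10.50 in CN. All LP rats were below all CN rats, though the nearest pair (10.48 and 10.50) almost met. The change was −0.41 (SE 0.13, exact permutation p 0.0286, limma adjusted p 0.625). The brighter probe set, 1377275_at, fell less, with 11.04, 11.10, 11.00 and 11.02 in LP, against 11.24, 11.22, 11.13 and 11.04 in CN, a change of −0.12 (SE 0.05, exact permutation p 0.0571, limma adjusted p 0.658). Rank products called both probe sets lower. The call of 1377275_at was lost when LP replicate 3 (−0.11) or any of CN replicates 1 to 4 was left out (−0.16 to −0.09), while Art1 as a gene stayed called without each array in turn.

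On day 84 Art1 read 10.94, 11.10, 11.27 and 11.19 in LP-R, against 11.14, 11.01 and 11.04 in CN-R on 1386598_at, a change of 0.06 (SE 0.08, exact permutation p 0.571 over 35 splits). The other probe set was nearly constant at 11.29. The early minus the late change of 1386598_at was −0.47, with an exact permutation p of 0.0212 over 2450 splits within both sets and an adjusted p of 0.0849 over the 4 genes tested in this way. The splits exchange diets within each set, so they stand for no diet effect in either set rather than for equal effects. The 4 genes were named for their changes in these same arrays, which the adjustment does not correct for. The difference between the comparisons did not pass for Art1, nor for Ldhb (0.09, exact p 0.666) or Nnt (0.03, exact p 0.228). Gpd2 was tested on 1387670_at, its dimmer probe set, because the brighter one varied only in the late set, and the difference was 0.03 (exact p 0.594).

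**Figure D3:**
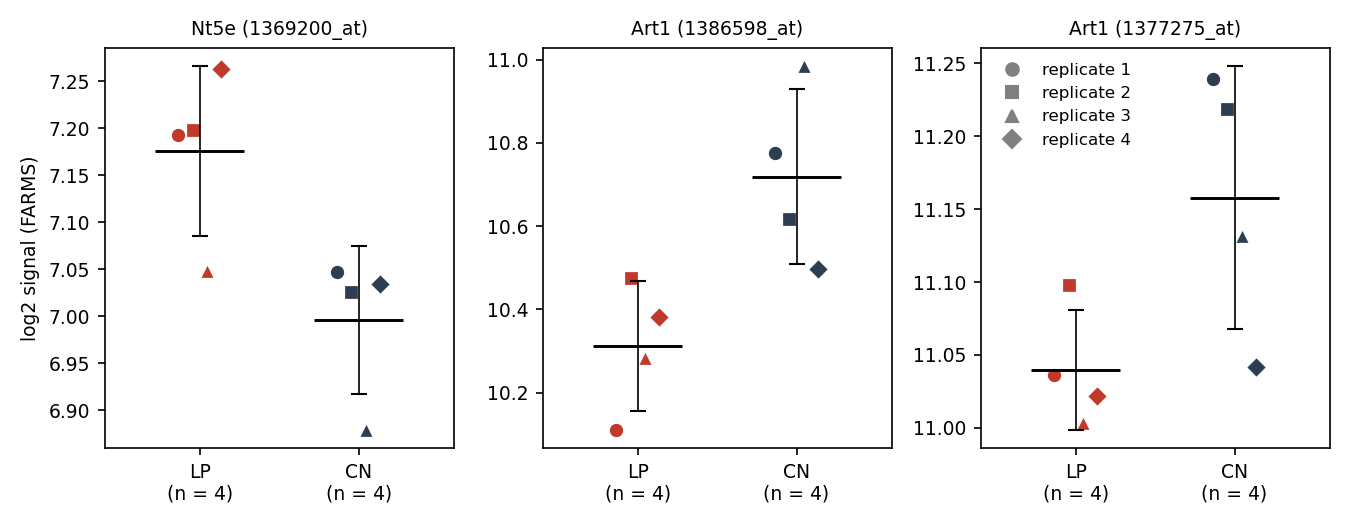
Log2 signals of Nt5e and of both Art1 probe sets in the LP and CN rats, with the mean (horizontal line), SD (bar) and a marker for each replicate number. Nt5e in LP and Art1 on 1386598_at in LP do not overlap with CN, and Art1 on 1377275_at does. The vertical axes differ and do not start at 0.

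The remaining consumers of NAD, listed together with genes that remove ADP-ribose (Parg, Adprh, Adprs and Macrod1), gave little that could be measured. Of the 18 measured genes on this sub-list, 3 varied early and 3 late, and apart from Art1 none was called. Tnks2, a tankyrase, had changes of 0.05 (SE 0.05) early and −0.01 (SE 0.08) late, and Art3 changes of 0.03 (SE 0.02) and −0.02 (SE 0.03). Among the 5 other sirtuins, only Sirt5 varied in the early set and none in the late set. Sirt5, which removes succinyl groups from mitochondrial proteins, averaged 9.33 ± 0.015 in the LP rats and 9.27 ± 0.054 in the CN rats (SD, n = 4 each), a change of 0.06 (SE 0.03, exact permutation p 0.0857). All 4 genes of the nicotinamide and nicotinic acid routes and all 8 measured genes of the tryptophan route, which starts NAD synthesis in the liver, were nearly constant in both sets. The 3 genes of integrins and their linked kinase on the list (Itgb1, Itga7 and Ilk) were not called in either comparison. On their brightest probe sets all 3 were nearly constant in both sets, so a change could not be measured there. Only Itgb1 had another probe set that varied, and only late.

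Of the 12 genes of the NADH shuttles and lactate dehydrogenases, 6 had a varying probe set early and 7 late, and 0 were called. Ldhb, the lactate dehydrogenase subunit of oxidative fibers, had the lowest change on the list in both comparisons when each gene is read on its brightest probe set. It read 11.13, 11.45, 11.72 and 11.54 in LP, against 11.66, 11.61, 11.43 and 11.66 in CN, a change of −0.13 (SE 0.13, exact permutation p 0.429). On day 84 it read 11.34, 11.44, 11.15 and 11.32 in LP-R, against 11.52, 11.71 and 11.35 in CN-R, a change of −0.22 (SE 0.12, exact permutation p 0.143, limma adjusted p 0.975). The groups overlapped both times. Gpd2, the mitochondrial enzyme of the glycerol phosphate shuttle, read 9.62, 9.63, 9.68 and 9.54 in LP-R, against 9.59, 9.56 and 9.52 in CN-R, a change of 0.06 (SE 0.03, exact permutation p 0.171, limma adjusted p 0.98), and it was nearly constant early on this probe set, 1369666_at. Nnt, which passes hydride from NADH to NADP in mitochondria, had a late change of −0.03 (SE 0.016, exact permutation p 0.143, limma adjusted p 0.975) and an early one of 0.00 (SE 0.02).

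**Figure D4:**
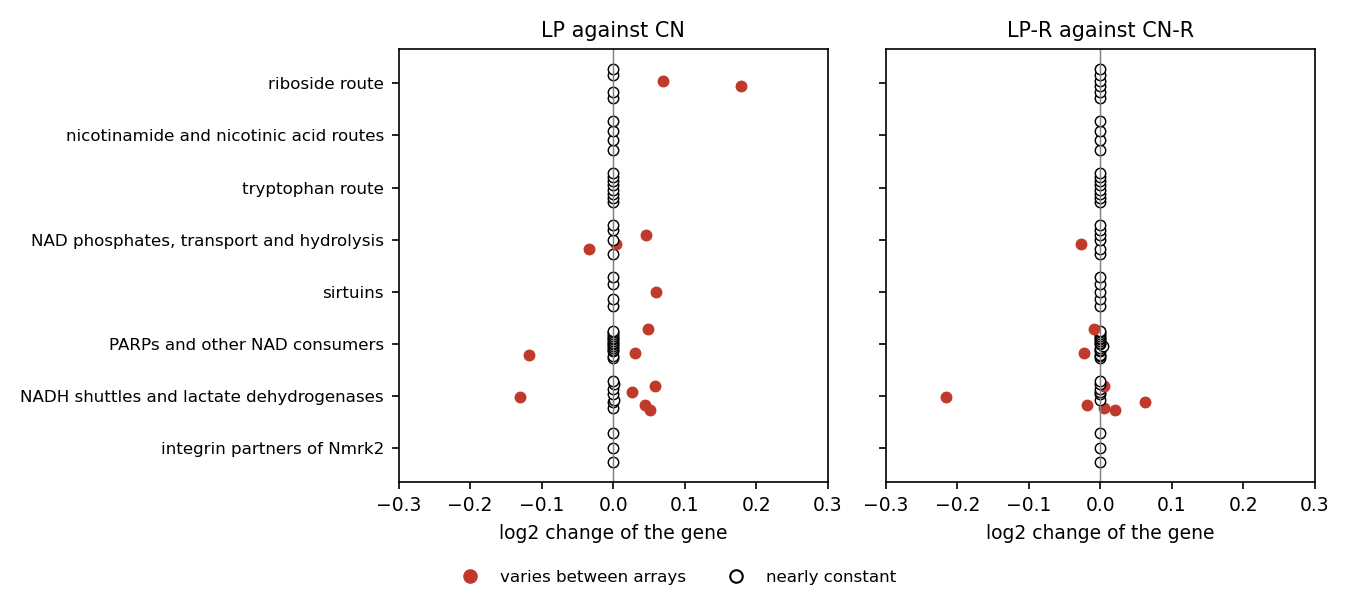
Log2 change (horizontal axis) of each of the 63 measured genes of the NAD pathway list, by sub-list (rows), with LP against CN on the left and LP-R against CN-R on the right, each gene by its probe set with the highest mean. Filled circles vary between arrays and open ones are nearly constant, and the values run from −0.13 to 0.18 early and from −0.22 to 0.06 late.

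Genes that followed Nmrk2 from rat to rat were looked for within the groups. After subtraction of each group mean, Nmrk2 was compared over the 15 arrays with 1386 probe sets that carry a single symbol and had an SD over 0.05 in both sets. These arrays share the split by replicate number described above, and 6.93% of the 1386 had a Pearson's r beyond 0.7 in size, so the following genes are the extremes of a broad range and carry no p. Tmem100, a membrane protein known from the endothelium of arteries in the mouse, had the highest r at 0.94 (Spearman's rank correlation 0.92, and r 0.90 without CN replicates 1 and 4, the arrays farthest from the median). Among those that came next were the small heat shock protein Hspb8 (r 0.89, rank correlation 0.89), the Golgi GTPase Arl1 (0.88, 0.83) and Akirin2, a nuclear protein that brings proteasomes into the nucleus in human cells (0.86, 0.86). The lowest were Cebpd, a transcription factor of the acute phase response (r −0.90, rank correlation −0.84), Depp1, a target of FOXO factors (−0.88, −0.93), and the arrestin-domain gene Arrdc2 (−0.87, −0.81). Without the same 2 arrays these 6 genes kept an r of 0.82 to 0.89 or of −0.90 to −0.88.

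Between the diets, Tmem100 was called lower in both comparisons, by −0.13 (SE 0.42) in LP against CN and −0.51 (SE 0.30) in LP-R against CN-R. In LP it read 7.65, 8.45, 8.70 and 8.19, against 7.38, 8.34, 8.99 and 8.81 in CN. Arrdc2 was called lower in both as well (−0.23, SE 0.45, and −0.50, SE 0.40). Cebpd was called lower in LP (−0.49, SE 0.36) and Depp1 higher in LP (0.34, SE 0.42). Neither was called in LP-R, though the study lists Cebpd as lower there too. Each of these 6 changes was under 2 times its SE. The calls rank a probe set among all others, most of them nearly constant. With only varying probe sets ranked, the calls over the whole table fell from 1014 to 31 early and from 160 to 7 late. Whether these 6 calls remain in that setting is not reported here.

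**Figure D5:**
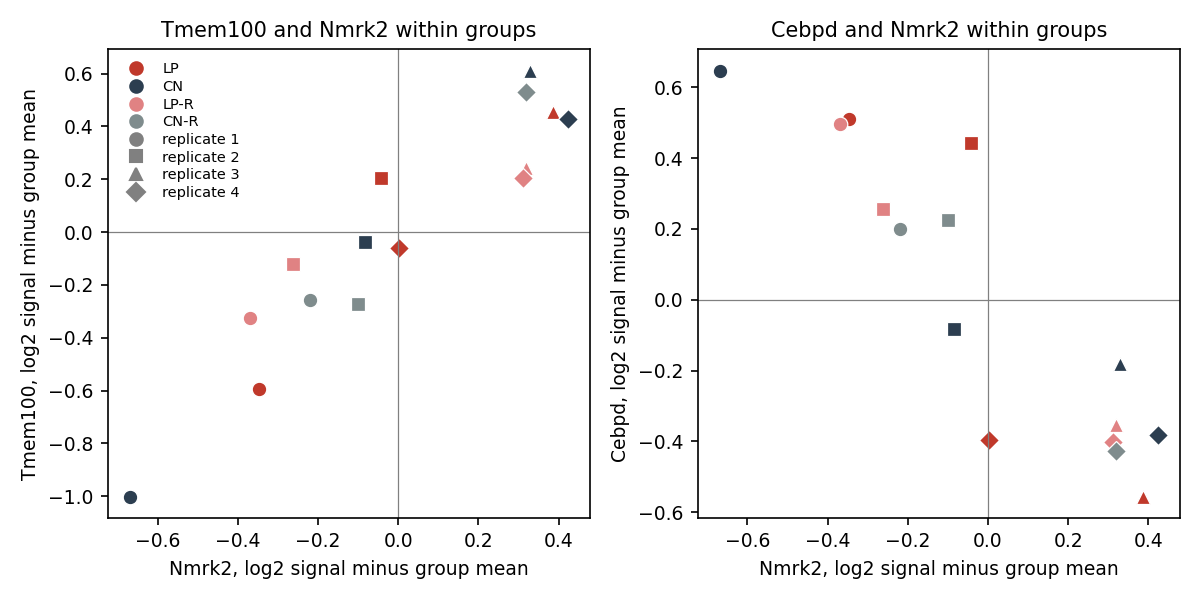
Log2 signal minus the group mean of Tmem100 and of Cebpd (vertical axes) against that of Nmrk2 (horizontal axis) in 15 rats, coloured by group and shaped by replicate number. Tmem100 rises with Nmrk2 (r 0.94) and Cebpd falls (r −0.90), and arrays numbered 1 lie at the low end of Nmrk2 in each group.

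Markers of other cell types were read beside Nmrk2 as summed linear signals. Over all probe sets, 1.68% were called higher and 1.58% lower early, and 0.345% and 0.171% late. Only 12.8% of all probe sets varied early and 9.99% late, and a gene counted as called on any of its probe sets. These shares are thus no like background for short lists in which many genes varied, and an excess cannot be read from them. How often the sums of other short lists fail to overlap was not computed. The endothelial list had 5 genes with a probe set, 2 of them called higher in LP, and its sum ran from 2081 to 2292 in LP, against 1874 to 1973 in CN, without overlap. Of 7 adipocyte markers, 1 was called higher in LP (4180 to 5497 in LP and 3984 to 5167 in CN) and 1 lower in LP-R (2882 to 2939 in LP-R and 2948 to 3009 in CN-R, without overlap). Of 6 fibroblast markers, 2 were called lower in LP (23950 to 25955 in LP and 22673 to 29513 in CN). Of 6 genes of slow fibers, 1 was called lower in LP-R (24510 to 32209 in LP-R and 27060 to 32484 in CN-R). No marker of macrophages (8 measured), blood (2) or nerve (1) was called. The macrophage sum ran from 1033 to 1041 in LP-R, against 1044 to 1055 in CN-R, without overlap, and the early sums of this list overlapped, as did both pairs of blood and nerve sums. Only 1 of the 8 macrophage genes had a varying probe set in each set of arrays. Of the 7 adipocyte genes, 4 had one early and 2 late. Most values in these late sums were thus nearly constant, and the sums moved with few probe sets. A varying probe set was present for 4 endothelial and 5 fibroblast genes early, and for 6 slow fiber genes late. The part of these markers in the changes of Nmrk2, Nt5e and Art1 was not tested.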

How the data were processed

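Total RNA of the gastrocnemius muscle was measured in 15 rats with 1 array each. The deposited values are log2 signals per probe set, which the authors made with FARMS in R and which were used as deposited, with no pseudocount or further normalization. Precision is limited by how many arrays there are. Of 26041 probe sets that were nearly constant within both sets of arrays, 94.7% differed between the sets by over 0.01, so the sets were kept apart. Control probe sets (57) were left out and 31042 tested, of which 20826 carry 1 symbol in the platform annotation, 436 several and 9780 none. Each gene was read on its brightest probe set, and a gene was called when any probe set of its symbol alone was.

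Rank products over all pairs of arrays (100 permutations of the values within each array, seed 1, called at a pfp up to 0.05) were computed with numpy 2.4.6 (Python 3.11.15, pandas 2.3.3, scipy 1.17.1), and limma 3.58.1 in R 4.3.3. Both were run on simulated data with independent noise and known shifts. That run checked that rank products recovered the shifts in the right direction. It set no limit on the share of false calls and held no split by replicate number. Exact permutation tests were two-sided, ran over every split of the arrays compared and were not adjusted over genes, except for the difference between the comparisons. The members, gene lists and tests were chosen with earlier results of these data known. By rule, the text names all members, the called genes of the NAD list, the 3 varying genes of smallest limma p in each comparison, the 5 genes most like Nmrk2, of which 1 is not reported here, and the 3 most opposed to it. Sirt5, Tnks2 and Art3 were named after their values were seen. Alternatives were quantile normalization, median centring, same-numbered pairs, varying probe sets alone, limma, leaving out each array and another group for CN-R replicate 4. Permutations of centred values were added after the data were seen. Coordinates and promoters are those of RefSeq for GRCr8 and were matched by gene symbol.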

Additional observations from a re-analysis of the deposited data

Results flagged for a closer look

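Of 27 groups of 4 arrays over the varying probe sets of the members and named genes, 1 held an array far from the others. In the CN group the log2 signal of Nt5e was lowest in CN replicate 3, at 6.88, against 7.026 to 7.047 in the other CN rats, a gap of 0.872 of the group's whole range, which is above Dixon's critical value for 4 arrays. Chance flags about 1 in 20 groups. Without CN replicate 3 the change of Nt5e was 0.14, and it was still called higher in LP. The CN-R group, with 3 arrays, was not tested in this way.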

How the results depend on the processing

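The change of Nmrk2 kept its direction in all alternatives, with an early range of 0.47 to 0.84 and a late range of 0.14 to 0.41 when 1 array was left out. The labels do not say that equal replicate numbers pair rats. The correlations of same-numbered deviations were 0.55, −0.03, 0.17 and 0.40 early and 0.04, 0.19 and 0.22 late, not all over 0.1, so the numbers were not taken as pairs. With the replicate block (same-numbered pairs) the change of Nmrk2 was 0.69 early and 0.15 late, and the late call was lost.

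Of the genes of the NAD list, 2 were called in LP against CN, 0 among the varying probe sets alone, 0 by limma, 0 by limma with the replicate block and 1 to 3 without 1 array. In the replicate block 3 were called, with Ldhb lower added to Nt5e and Art1. In LP-R against CN-R 0 were called, 1 in the replicate block (Gpd1, lower), 1 with centred permutations (Ldhb, lower), an alternative chosen after the data were seen, and 0 to 1 without 1 array (Gpd1 without LP-R replicate 3, Ldhb without LP-R replicate 2). The cause of these shifts was not tested, except that the filter leaves fewer probe sets.

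The calls over the whole table numbered 522 higher and 492 lower for LP, and 11 and 20 among the varying probe sets. For LP-R they numbered 107 higher and 53 lower, but 64 and 154 with centred permutations, 47 and 138 in same-numbered pairs and 332 and 15 with CN-R replicate 4 counted as LP-R. Without 1 array the totals ran from 521 to 906 early and 119 to 183 late. Among the members, only the probe sets of Nmrk2, Nampt and Nmnat3 varied between arrays. A mean over probe sets was not run because Nmrk2 has 1 probe set, and reading each gene on its most variable probe set does not alter a call made on any probe set.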
